A study of Homo sapiens and Homo sapiens
Mus musculus and Mus musculus with 200 samples.

Results

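ALX1-bound elements were 876 of the 213151 accessible-chromatin elements on which H3K27ac was counted, 490 of them found in 2 of 4 V5 peak lists, 252 in 3 and 134 in all 4. An element is 1 row of the count tables, an ATAC-seq peak region at most 3398 bp wide. It was taken as ALX1-bound when it overlapped a V5 peak in at least 2 of the 4 lists made from ALX1FV and ALX1FV ALX4- cells at 0 h, 2 replicates each. The V5 signal therefore chose the elements, and it is described here without a test. Another 1558 elements overlapped a V5 peak in 1 list.

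Human cranial neural crest cells (hCNCC) were derived from H9, a human embryonic stem cell line. H3K27ac was measured by ChIP-seq in 6 lines, unedited WT cells and 5 edited ones, with 2 replicates at 0, 3 and 24 h of dTAGV-1 (500 nM), a small molecule that directs a tagged protein to degradation. TWIST1FV, ALX1FV, PRRX1FV and MSX1FNV carry the degradation tag on the named factor, and ALX1FV ALX4- carries it on ALX1 and lacks ALX4. WT cells received dTAGV-1 too and carry no tag. The labels name dTAGV-1 also for the 0 h libraries, while the protocol names DMSO or dTAGV-1. In ALX1FV, ALX1FV ALX4- and PRRX1FV each replicate number was a clone of its own, whereas both TWIST1FV replicates came from 1 clone and both MSX1FNV replicates carry the same clone name. Line, clone and, for WT and TWIST1FV, an added mouse O9-1 chromatin spike-in cannot be told apart in comparisons between lines. Nothing in the labels says that replicates were separate differentiations, so p-values measure the spread between these samples, which may be technical. V5 was also profiled at 0 h in PRRX1FV and MSX1FNV, TWIST1 in WT, TWIST1FV and ALX1FV ALX4- hCNCC, and AP2a in WT hCNCC with 2 antibodies. V5 libraries taken at 3 h were not analysed here.

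ALX1 and ALX4 are homeodomain factors of the facial mesenchyme and bind sequences with a TAAT or ATTA core. TWIST1 is a basic helix-loop-helix (bHLH) factor of neural crest and mesenchyme that binds E-boxes as a dimer. AP2a, the product of TFAP2A, is a neural crest factor. H3K27ac, acetylation of histone H3 on lysine 27, marks active enhancers and promoters.

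Total counts over the elements ran from 5137169 to 9173063 per library. Of the 7 hCNCC marker genes TFAP2A, TWIST1, NR2F1, NR2F2, PRRX1, SOX9 and TFAP2B all had start-site elements with H3K27ac, between 20.4 and 140 CPM per kb (counts scaled to the library's total, CPM, per kilobase of element) over the 36 libraries. Among markers of other cell types, the pluripotency gene LIN28A reached 105 to 148 CPM per kb, DPPA4 6.95 to 29.5 and the epithelial gene EPCAM 2.34 to 13.1. PRDM14, SOX1, FEZF1, PAX6, OTX2, CDH1, TP63 and TAL1 were at 4.74 or below, and POU5F1, NANOG, LHX5, KRT5, TNNT2 and GATA1 had no element at a start site.

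About 15.0% of V5 summits lay by an E-box and a homeodomain core at 1 set spacing. The E-box was any of 4 hexamers, namely CAGATG, the palindrome CAGCTG, the palindrome CATATG and the hexamer CATCTG, searched on both strands. Such an E-box followed by 6 bases and then ATTA was found in 131 of 876 windows reaching 100 bp to either side of the V5 summit (15.0%, Wilson 95% interval 12.7 to 17.5) and in 2 of 1752 windows of the same length 1000 bp away (0.114%). The windows were chosen by V5, so this is a description. The ATTA form of the motif was itself chosen after the gaps from 0 to 20 bases had been scanned in these windows. Below are 6 stretches of 50 bases around sites within 50 bp of a V5 summit, read from hg38 on the strand that puts the E-box first and named by the nearest gene. They are shown because the KCNJ2 element is among the strongest in V5 and the other 5 lie nearest to listed genes of signalling, adhesion, matrix and neural crest. Capitals mark the E-box and the ATTA core.
KCNJ2 (chr17:70674595-70674644, + strand): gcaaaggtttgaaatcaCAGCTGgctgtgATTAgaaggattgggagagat
ALDH1A3 (chr15:100766363-100766412, − strand): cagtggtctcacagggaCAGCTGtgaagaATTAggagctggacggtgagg
CDH11 (chr16:65272179-65272228, + strand): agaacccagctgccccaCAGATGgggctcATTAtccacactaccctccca
SEMA3D (chr7:85125943-85125992, − strand): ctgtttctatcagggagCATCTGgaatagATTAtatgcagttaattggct
COL1A2 (chr7:94348225-94348274, − strand): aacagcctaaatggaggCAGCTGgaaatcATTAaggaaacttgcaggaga
SOX9 (chr17:72376643-72376692, − strand): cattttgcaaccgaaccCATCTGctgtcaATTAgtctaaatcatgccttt
The 6 stretches share the spacing of E-box and core, while the 6 bases between them differ in each. In none of the 6 does the core read TAATTA.

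Between E-box and ATTA, a gap of 6 bases was the most frequent of those from 0 to 20. The next most frequent gap, 20 bases, was found in 2.17% of summit windows. An E-box with TAAT 4 bases after it was found in 56 windows (6.39%) and in 4 flank windows (0.228%). The 2 arrangements overlap where the core is TAATTA. An E-box with 4 bases to TAATTA or TAATTG was found in 14 windows (1.60%) and in 0 of 1752 flank windows. A palindromic homeodomain pair (TAAT, 3 bases, ATTA) was found in 35 windows against 9 flank windows, and 2 E-boxes 5 bases apart in 6 against 0. Any E-box of these 4 forms was in 72.0% of summit windows and 26.0% of flank windows, TAATTA or TAATTG in 39.7% and 16%, and the AP2 sequence GCC, 3 bases, GGC in 11.3% and 4.51%. In 250 bp to either side of each element's midpoint, a window not placed by V5, the E-box with ATTA 6 bases on was in 14.7% of ALX1-bound elements, 8.29% of the 40686 other elements with a TWIST1 peak in both WT replicates and 2.44% of all elements. Over whole elements there were 171 such sites in 161 elements, 100 of them within 50 bp of the V5 summit. Some sites lay in much alike sequence and were counted separately. Of 93 windows of 50 bases compared, 6 formed a group with 38 to 43 letters alike. Those nearest SSPN and API5 had 40 alike, where the median over all pairs was 19. CAGCTG and CATCTG were the E-box in 65 sites each, CAGATG in 25 and CATATG in 16. The share was 15.1%, 15.5% and 13.4% in elements found in 2, 3 and 4 lists, and 11.4% in those found in 1 list.

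**Figure D1:**
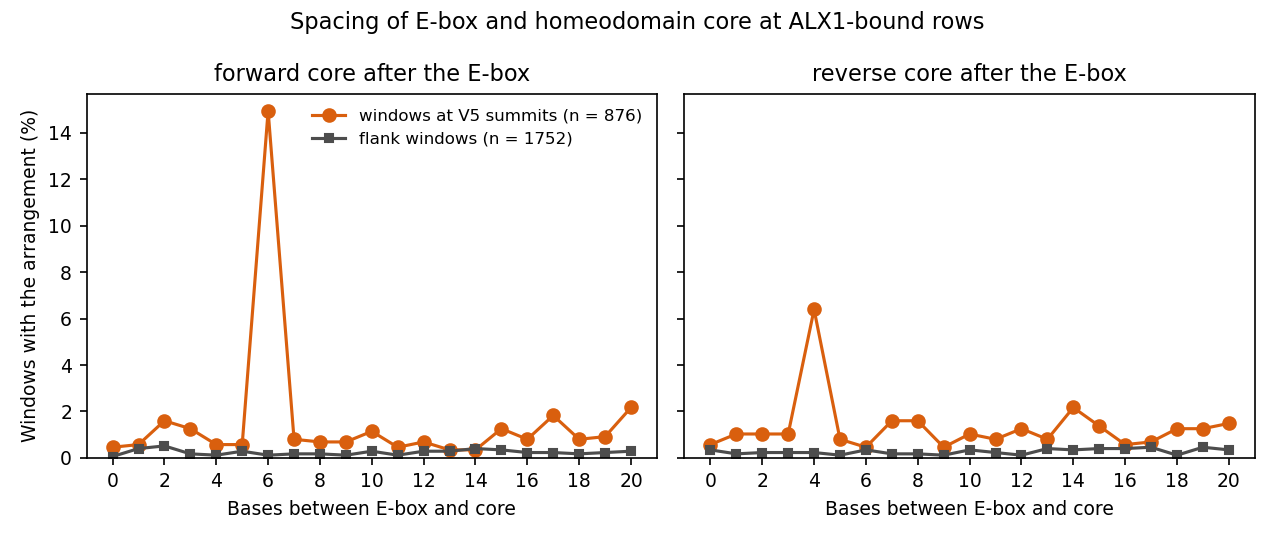
Share of windows (%) that hold an E-box and a homeodomain core, by the bases between them from 0 to 20, for 876 windows at V5 summits and 1752 flank windows, with 1 panel for each core. The ATTA panel peaks at a gap of 6 bases (15.0%) and the TAAT panel at 4 (6.39%), while no gap exceeds 0.514% in the flank windows.

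V5 enrichment at the elements was modest and similar in the 4 libraries. The authors' fold enrichment had medians of 5.50 and 5.95 in ALX1FV replicates 1 and 2 (680 and 299 elements) and 6.51 and 6.40 in ALX1FV ALX4- (614 and 679 elements), and ran from 2.75 to 19.8. At least 1 list of each line held 699 elements, while 42 were found in both ALX1FV lists alone and 135 in both ALX1FV ALX4- lists alone. ALX1FV replicate 2 had the shortest list, 376 peaks against 1389, 920 and 1116. Without ALX1FV replicate 1 the rule would give 557 elements and without ALX1FV ALX4- replicate 2 it would give 554. Just inside the rule, elements in 2 lists had a highest fold between 3.37 (nearest CCL2), 3.54 (CBFA2T3) and 3.79 (VCX3B) at the low end and 13.5 (ARHGAP5), 13.8 (TMEM119) and 15.0 (ADGRA2) at the high end. Just outside it, elements in 1 list ran from 2.98 (LRIG1), 3.08 (YPEL2) and 3.11 (BOC) to 12.6 (NOVA1), 13.0 (MOXD1) and 16.4 (DCAF4L2).

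Among elements in all 4 lists, the strongest by mean V5 rank lay far from genes. The first was 259 kb from MN1, a transcriptional regulator gene (chr22:27541786-27542286, hg38, intergenic), with V5 folds of 7.62 and 8.68 in ALX1FV and 13.3 and 19.8 in ALX1FV ALX4-. The second was in an intron of GCNT1 (chr9:76527984-76528484), a glycosyltransferase gene, with 8.73, 8.71, 12.3 and 10.2. The third was 727 kb from NR2F2, an orphan nuclear receptor gene of neural crest (chr15:95598383-95598883), with 8.27, 7.72, 8.66 and 11.4. The others of the first 10 were nearest to FOXC1, KCNJ2, ENSG00000237378, FBLN1, TLE3, PDE5A and ROBO1. The MN1 element had TWIST1 folds of 115 and 77.9 in WT and yet little H3K27ac, 7.50 and 11.6 CPM per kb in WT at 0 h. The KCNJ2 element had TWIST1 folds of 135 and 191, with 146 and 150 CPM per kb of H3K27ac. V5 strength in the tagged ALX1 lines and H3K27ac in WT, a different line, thus differed in order between these elements.

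The elements were wide and far from start sites. Their median width was 808 bp, where the median of all elements was the narrowest width, and their median distance to the nearest protein-coding start site was 60.6 kb against 35.8 kb over all elements and 40.8 kb over the other TWIST1 elements. Of the 876, 53.3% were intergenic (all elements 45.2%), 36% intronic, 3.65% in coding exons and 4.91% within 1000 bp of a start site (all elements 12.6%, other TWIST1 elements 13.3%). More than 100 kb separated 38.9% of them from any start site. GC content had a median of 45.9% against 46.3% over all elements. By nearest start site they fell to 719 genes, 603 with 1 element and 116 with 2 or more.

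Genes of facial and crest development were among these neighbours. Of 219 listed genes of 6 groups, 66 had at least 1 element, and 101 elements (11.5%) lay nearest to a listed gene, against 7.01% of other TWIST1 elements and 5.05% of all elements. The lists were chosen with results of these data known, so the share is a description. The homeobox list had 21 elements at 12 of 37 genes, among them ALX4 and MSX1 with 3 each and PAX3, PKNOX2 and SIX2 with 2 each. It had 1 each at LMX1B, MEIS1, MSX2, ZFHX3, ZFHX4 and EYA1, of which EYA1 has no homeobox. ALX1 itself was nearest to none. Neural crest factors had 19 elements at 9 of 18 genes, of which ETS1 had 6, NR2F2 4, and NR2F1 and SOX9 2 each. bHLH genes and their partners had 5 elements at 4 of 16 genes, 2 of them at TWIST1. Forkhead, T-box and other mesenchyme factors had 13 elements at 10 of 30 genes, 2 each at AUTS2, FOXC1 and MECOM. Signalling genes had 31 elements at 24 of 75 genes, 4 at BMP7, a bone morphogenetic protein, and 2 each at the Wnt receptor gene FZD1, the Slit receptor gene ROBO1, the semaphorin gene SEMA3D and the signalling inhibitor gene SPRY2. Extracellular matrix and adhesion genes had 12 elements at 7 of 43 genes, 4 at the cadherin gene CDH11 and 3 at the laminin gene LAMA4. Outside the lists, TMEM132C had 6 elements and COL13A1, COL26A1, PLXNA4, RAD51B, ROR2 and TGFBI 4 each.

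Nearly every ALX1-bound element carried TWIST1. Peaks of TWIST1 in both WT replicates at 0 h overlapped 874 of 876 (99.8%, Wilson 95% interval 99.2 to 99.9), against 19.5% of all elements. The 2 without were near LINC02210-CRHR1 (chr17:45664903-45665403) and KDM5C (chrX:53224402-53225780), named after their values were seen. TWIST1 enrichment was high there: the median element stood at percentile 98.3 of TWIST1 fold in WT replicate 1. V5 and TWIST1 summits were a median of 30 bp apart, 72.0% within 50 bp and 89.8% within 100 bp.

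AP2a peaks of both antibodies overlapped 497 ALX1-bound elements (56.7%), against 20.1% of other TWIST1 elements and 9.10% of all elements. The share was 63.4% for the Cell Signaling antibody alone and 59.9% for the Novus antibody, each a single library. It was 52.0%, 59.5% and 68.7% in elements found in 2, 3 and 4 V5 lists, and 40.0% in those found in 1. Strong TWIST1 binding went with AP2a, so elements at or above percentile 95 of TWIST1 fold were also set apart. There 59.4% of 678 ALX1-bound elements and 34.7% of 3079 others had AP2a. In the same strong class the E-box with ATTA 6 bases on was in 16.2% and 12.4%.

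V5 peaks of the other tagged homeodomain factors were few and lay largely on these elements. MSX1FNV lists touched 50 and 279 elements, of which 36 and 158 were ALX1-bound (4.11% and 18.0% of the 876). PRRX1FV lists held 2 peaks and 1 peak, and touched 2 and 0 ALX1-bound elements. Reads behind these lists are not known in number, so list lengths were not compared between factors. No V5 list from hCNCC without a tag was used here. HEK293 cells given the empty plasmid pUC19 had a V5 peak at 0 of the 876 (Wilson 95% upper bound 0.437%) and at 0.142% of all elements. So short a list, from another cell line, cannot show the V5 background of hCNCC.

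TWIST1 degradation removed the TWIST1 peak from most ALX1-bound elements. In TWIST1FV, peaks covered 99.5% and 99.4% of the elements at 0 h and 32.6% and 30.9% at 3 h. The lists did not overlap between times, and the difference was −67.7 percentage points, with p = 0.33 by an exact permutation test, two-sided, the smallest that 2 against 2 lists allow. WT cells had 99.8% in each list at 0 and at 3 h. Other TWIST1 elements went from a mean of 64.1% to 1.31%. At or above percentile 95 of TWIST1 fold, a TWIST1 peak was left at 3 h in either replicate at 45.7% of ALX1-bound and 17.8% of other elements, a description over elements with no test.

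TWIST1 peaks were present on nearly all of these elements in cells without ALX4. In ALX1FV ALX4-, which still holds ALX1 at 0 h, 99.7% and 99.9% of them had a TWIST1 peak, against 99.8% and 99.8% in WT, a difference of 0 with p = 1 by the exact permutation test, two-sided. A share this close to its ceiling could not rise. Presence of a peak does not measure its height, so a partial loss of TWIST1 would not show. V5 lists of ALX1FV ALX4- also helped choose the elements, and 135 entered through that line's lists alone. Other TWIST1 elements had 79.0% and 73.7% in ALX1FV ALX4-, where WT peaks define the set.

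In HEK293, a kidney line, TWIST1 reached more of these elements when ALX4 was present. Cells given V5-TWIST1(WT) had a V5 peak on 17.8%, 14.2% and 22.6% of them, and cells given ALX4-Flag as well on 45.8%, 52.9% and 56.8%. All 3 libraries with ALX4 were above all 3 without. The lists with ALX4 touched 21615, 27926 and 41277 elements of the whole set and those without 23922, 17441 and 36421. The means were 18.2% ± 4.24 and 51.8% ± 5.61 (SD, n = 3), a difference of 33.6 percentage points with p = 0.1 by an exact permutation test, two-sided, the smallest that 3 against 3 allow. Other TWIST1 elements had 17.3%, 13.7% and 22.2% without and 22.3%, 27.6% and 34.1% with ALX4. In the strong class, ALX1-bound elements had 50.7%, 58.1% and 62.5% with ALX4 and other elements 36.3%, 40.7% and 45.7%, while without ALX4 both had between 14.4% and 23.7%. In single libraries, untagged TWIST1 gave 20.0% alone and 49.7% with ALX4. In another set of single libraries, V5-TWIST1 read with the TWIST1 antibody, the values were 14.2% alone, 38.1% with ALX4, 20.5% with PRRX1a, 27.3% with PRRX1b, 20.8% with PHOX2A and 10.6% with MSX1, whose list held 2498 peaks. RS4;11, a lymphoblast line, had TWIST1 peaks on 19.1% of ALX1-bound and 21.8% of other TWIST1 elements.

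**Figure D2:**
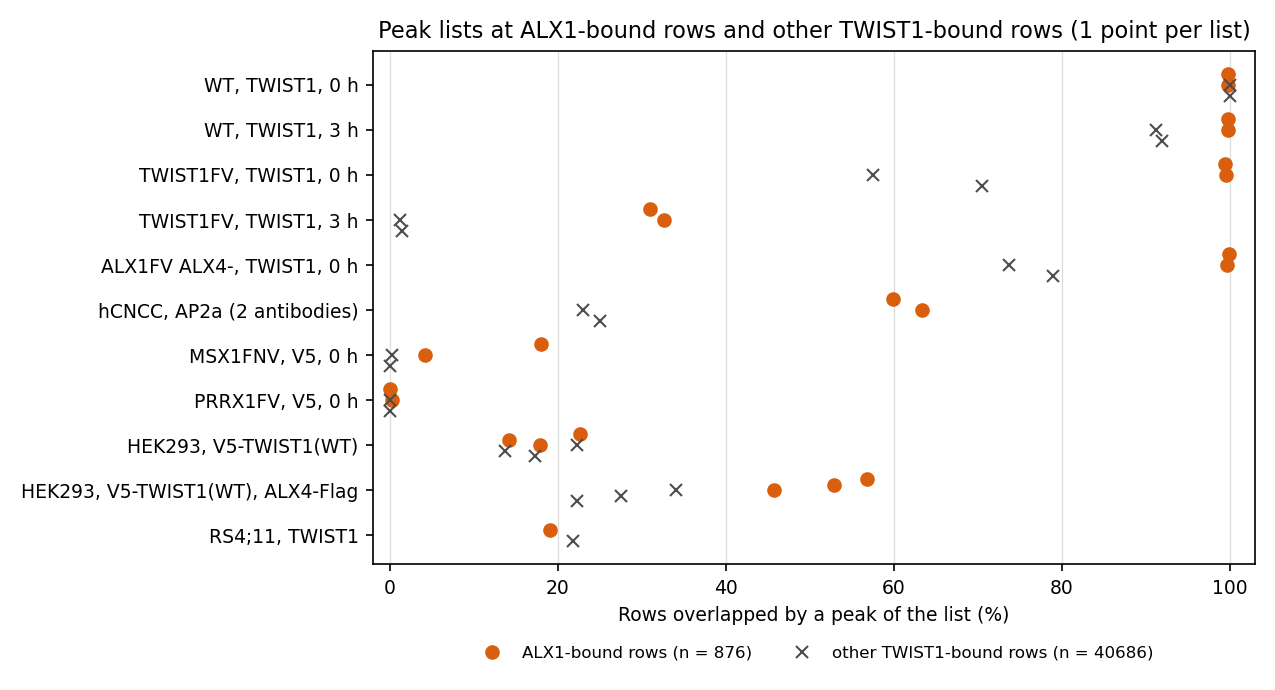
Share of 876 ALX1-bound rows and of 40686 other TWIST1-bound rows (%) overlapped by each peak list, 1 point per list. HEK293 lists with ALX4-Flag lie between 45.8% and 56.8% at ALX1-bound rows and between 22.3% and 34.1% at other TWIST1-bound rows.

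H3K27ac at ALX1-bound elements was high in all lines. The median level was 52.4 and 52.2 CPM per kb in WT at 0 h, 57.6 and 48.7 in TWIST1FV, 45.4 and 50.3 in ALX1FV, 35.7 and 37.4 in ALX1FV ALX4-, 42.6 and 39.7 in PRRX1FV and 45.6 and 42.3 in MSX1FNV. ALX1FV ALX4- had the lowest pair at 0 h. Over all elements the median was 2.64 to 3.32 CPM per kb in the 36 libraries. In bulk samples, fewer cells carrying the mark and less of it per cell cannot be told apart.

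**Figure D3:**
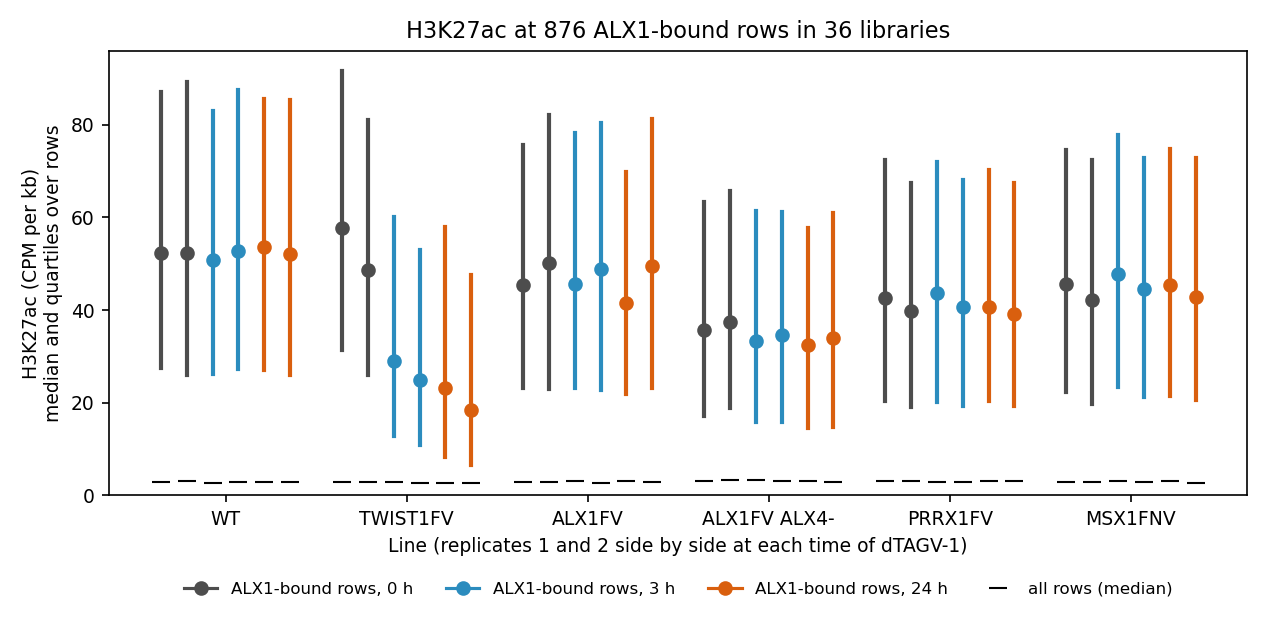
H3K27ac (CPM per kb, median and quartiles over rows) at the 876 ALX1-bound rows in each of 36 libraries, by line and time of dTAGV-1, with the median of all rows as a dash. TWIST1FV falls from 57.6 and 48.7 at 0 h to 23.2 and 18.5 at 24 h, and ALX1FV ALX4- lies lowest at 0 h.

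TWIST1 degradation lowered H3K27ac at many of these elements within 3 h. Their median level in TWIST1FV was 57.6 and 48.7 CPM per kb at 0 h, 28.9 and 25 at 3 h and 23.2 and 18.5 at 24 h, with no overlap between 0 h and later libraries. Of 869 elements that passed the filter on low counts, 385 fell and 8 rose at 3 h, and 503 fell and 18 rose at 24 h, by edgeR's quasi-likelihood test at a Benjamini-Hochberg false discovery rate of 0.05. Of all tested elements 4.28% were called lower at 3 h and 9.49% at 24 h, against 44.3% and 57.9% of ALX1-bound elements and 12.8% and 28.5% of other TWIST1 elements. The median log2 fold change was −0.82 at 3 h and −1.06 at 24 h, against −0.51 and −0.74 at other TWIST1 elements and 0.02 and 0.03 over all tested elements. Of the 385 lower at 3 h, 368 were also lower at 24 h (95.6%, and 73.2% of the 503). Without TWIST1FV 0 h replicate 1, 251 elements in all were called at 3 h in place of 393.

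The fall was larger than in WT cells given dTAGV-1. In WT no element was called at either time, where 0 percent of all tested elements were called, and DESeq2 called 0. At an unadjusted p under 0.05, edgeR, 4 were higher and 9 lower at 3 h, and 11 and 12 at 24 h. That was 1.49% and 2.64% of ALX1-bound elements, against 3.42% and 3.58% of all tested elements. The response of TWIST1FV minus that of WT was lower at 313 and higher at 3 of 874 elements at 3 h (2.1 percent of all tested elements lower), and lower at 450 and higher at 10 at 24 h (4.92 percent lower), by edgeR's interaction test.

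**Figure D4:**
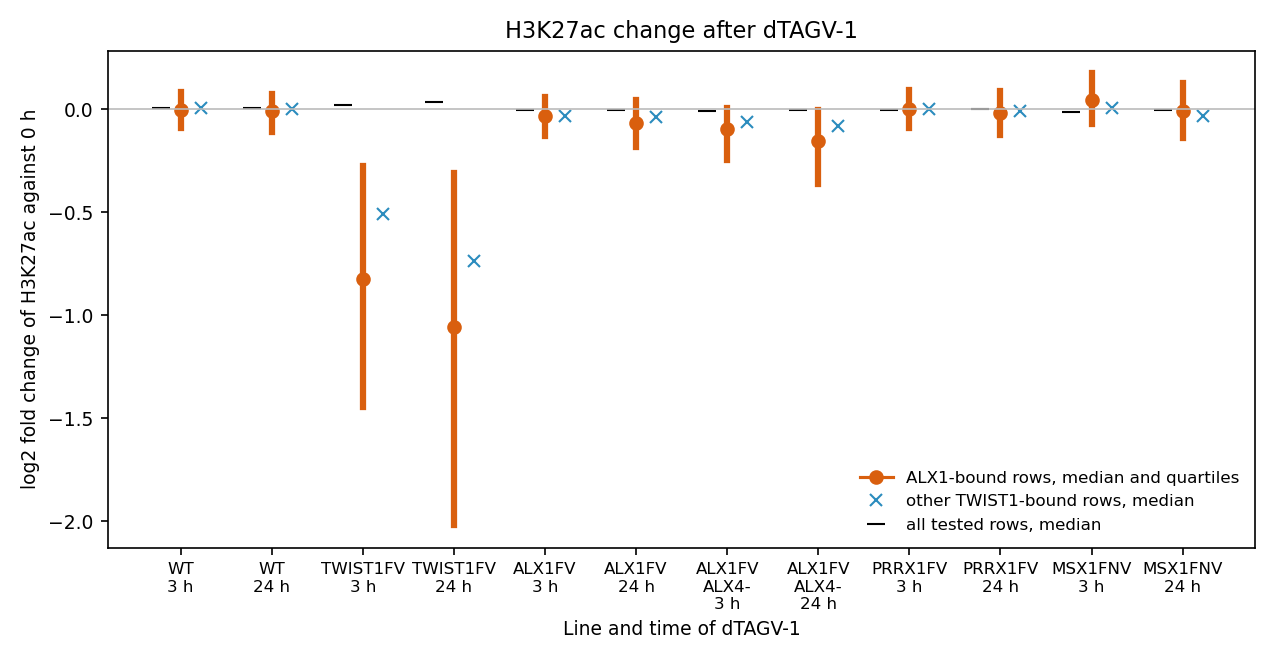
Log2 fold change of H3K27ac against 0 h in each line at 3 and 24 h of dTAGV-1, as the median and quartiles over ALX1-bound rows, with medians of other TWIST1-bound rows and of all tested rows. TWIST1FV medians are −0.82 and −1.06, and ALX1FV ALX4- medians are −0.10 and −0.15.

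The steepest falls reduced the mark to a small part of its level. At the IFI27L1 promoter element (chr14:94097797-94098730, 0.89 kb from the start site), H3K27ac in TWIST1FV was 60.9 and 47.2 CPM per kb at 0 h, 4.56 and 4.70 at 3 h and 1.5 and 1.98 at 24 h. Each later pair lay far below the 0 h pair, and the log2 fold change at 24 h was −4.95 (SE 0.31, adjusted p = 5.61e-08, edgeR). An intronic element of ANO2, a chloride channel gene (chr12:5810650-5811985), went from 96.0 and 57.1 to 10.8 and 6.57 and to 3.05 and 1.88. The GCNT1 element that was second in V5 went from 41.1 and 34.8 to 3.12 and 3.01 and to 1.40 and 1.58 (3 h, −3.62, SE 0.38, adjusted p = 4.22e-05, edgeR). Others among the 5 steepest at either time lay near STEAP1B, CDH8, HABP2, TNS3 and TFAP2A. The TFAP2A element lay 345 kb from the gene (chr6:10058765-10059265) and went from 91.1 and 65.2 to 15.9 and 17.5 and to 3.26 and 2.11 CPM per kb, while WT stayed between 43.7 and 61.3.

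Few elements rose. The element 268 kb from UACA (chr15:70433028-70434749) was at 1.03 and 1.56 CPM per kb at 0 h, 6.76 and 3.67 at 3 h and 19.0 and 6.14 at 24 h, a log2 change of 3.27 at 24 h (SE 0.50, adjusted p = 0.000238, edgeR). Every later value was above both 0 h values, but its 3 h call was lost without 0 h replicate 1 (adjusted p = 0.0939) or 3 h replicate 1 (0.0583), edgeR. An element near NUAK1, a kinase gene, went from 23.0 and 15.0 to 52.2 and 30.9 and to 73.7 and 56.4, and its 3 h call was lost without 0 h replicate 2 (adjusted p = 0.205) or 3 h replicate 1 (0.148), edgeR. An intronic element 8.37 kb from the TWIST1 start site (chr7:19108347-19109270) went from 62.2 and 69.8 to 66.5 and 90.7 and to 102 and 152, and rose at 24 h (0.95, SE 0.19, adjusted p = 0.00255, edgeR). Its WT levels were 90.4 to 101.

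Of the 21 elements of the homeobox list, 5 fell in TWIST1FV at 3 h and 8 at 24 h, and none rose (median log2 change −0.45 at 24 h). Among all tested ALX1-bound elements, 44.3% fell at 3 h and 57.9% at 24 h. An element 124 kb from MSX1, a homeobox gene of facial mesenchyme (chr4:4734571-4735551), went from 44.1 and 34.3 CPM per kb to 6.95 and 7.13 and to 4.75 and 4.85, and fell at both times (−2.48 and −3.02). The MSX1 elements 105 and 95.8 kb away were not called. At PAX3, a paired-box gene of neural crest, 1 of 2 intronic elements fell (−0.90 and −1.06). Both SIX2 elements fell at 3 h (−1.50 and −1.09), and 1 at 24 h (−1.41). The 3 elements nearest ALX4 were not called.

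Of the neural crest factors' 19 elements, 6 fell at 3 h and 9 at 24 h, and 1 rose in this list of genes at 24 h (median −0.55). For this and the other lists, the shares of all tested ALX1-bound elements that fell were 44.3% and 57.9%. The element 306 kb from SOX9, a factor of crest and cartilage (chr17:71813803-71814646), had 78.3 and 55.1 CPM per kb at 0 h, 15.3 and 14.6 at 3 h and 8.29 and 9.40 at 24 h, a log2 change of −2.91 (SE 0.25, adjusted p = 8.17e-07, edgeR). WT stayed between 61.3 and 74.7. The other SOX9 element, whose sequence is printed above, was not called (−0.44 at 24 h). Of 6 ETS1 elements 1 fell at 3 h and 2 at 24 h, and of 4 NR2F2 elements 1 and 2. None of the 5 elements of bHLH genes fell, and 1 rose, that of TWIST1. Forkhead, T-box and other mesenchyme factors had 3 of 13 elements lower at 3 h and 8 at 24 h (median −1.64), with both AUTS2 and both MECOM elements lower at 24 h and neither FOXC1 element called.

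Of the 31 elements of signalling genes 16 fell at 3 h and 20 at 24 h (median −1.07), beside 44.3% and 57.9% of all tested ALX1-bound elements, and none rose. Of the 4 BMP7 elements, 3 fell at 3 h and 4 at 24 h. The one 131 kb away (chr20:57133656-57134702) went from 143 and 115 CPM per kb to 43.7 and 25 and to 39.9 and 24.5 (24 h, −1.99, SE 0.26, adjusted p = 4.18e-05, edgeR), while WT stayed between 112 and 128. Both FZD1 elements fell at both times: the one 20.1 kb away went from 16.6 and 13.1 to 4.53 and 1.64 and to 0.931 and 1.06, and the other from 30.5 and 13.6 to 5.10 and 2.74 and to 1.86 and 3.17. Both ROBO1 elements fell at both times (24 h, −1.64 and −1.30), and neither SEMA3D element was called. Elements of ALDH1A2 and ALDH1A3, which encode enzymes that make retinoic acid, fell by 3.15 and 1.20 on the log2 scale at 24 h. Of the 12 matrix and adhesion elements 4 fell at 3 h and 6 at 24 h (median −0.88), among them those of COL1A2, a type I collagen gene (57.8 and 52.8 CPM per kb at 0 h, 20.1 and 17.9 at 24 h, −1.54), and POSTN, a matrix protein gene (−1.71). Of 4 CDH11 elements, 1 fell at 3 h and 2 at 24 h, and the one whose sequence is printed above was not called.

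The fall in TWIST1FV differed with AP2a overlap and with the TWIST1 peaks that remained. At 3 h, 213 of 373 elements without AP2a of both antibodies were lower (57.1%, median −1.20) and 172 of 496 with it (34.7%, median −0.53). At 24 h the shares were 70.5% and 48.4%. Their 0 h levels also differed, with medians of 44.3 CPM per kb without and 63.1 with AP2a, and the part of level in this difference was not tested. Other TWIST1 elements had medians of −0.65 without and −0.03 with AP2a at 3 h. Where a TWIST1 peak was left at 3 h in either replicate, 84 of 343 were lower at 3 h (24.5%, median −0.40), and where none was left, 301 of 526 (57.2%, median −1.19), again with unlike 0 h levels of 67.5 and 44.9. Elements in 2, 3 and 4 V5 lists were lower at 45.9%, 45.4% and 36.6%. With and without the E-box and ATTA arrangement, 45% and 44.2% were lower. These are descriptions over elements, with no test between classes.

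ALX1 degradation gave no called change. In ALX1FV none of 872 tested elements was called at 3 or 24 h, where 0 percent of all tested elements were called, by edgeR's quasi-likelihood test, and DESeq2 called 0. At an unadjusted p under 0.05, edgeR, 0 were higher and 4 lower at 3 h, and 1 higher and 11 lower at 24 h. That was 0.459% and 1.38% of ALX1-bound elements, against 1.61% and 1.84% of all tested elements. This fit had no clone block, so spread between clones entered it. Deviations of same-numbered samples from their group means correlated at 0.713 to 0.741 over ALX1-bound elements and at 0.140 to 0.149 over all. These shares therefore do not show a smaller response at ALX1-bound elements. With each clone as a replicate block, edgeR again called 0 at both times, with 13 higher and 30 lower at 3 h and 8 and 75 at 24 h at an unadjusted p under 0.05. The share of all tested elements under the block is not given here, so these counts cannot be set against a background. The median log2 change was −0.03 at 3 h and −0.07 at 24 h. The 8 elements with the smallest p at 24 h, all lower in both replicates, lay near KCNT2 (−0.67), HSF2 (−0.71), KCNMA1 (−0.45), LUZP4 (−0.44), AOAH (−0.41), STARD13 (−0.35), FBXL17 (−0.34) and CD82 (−0.33), and none passed the adjustment. The response minus that of WT gave 0 calls at both times (0 percent of all tested elements), and DESeq2 called 0. At an unadjusted p under 0.05, edgeR, 2 were higher and 0 lower at 3 h, and 0 and 7 at 24 h. That was 0.229% and 0.801% of ALX1-bound elements, against 3.49% and 3.79% of all tested elements. This fit too had no clone block, so these shares do not show a smaller response either. The replicate block gave 0 calls there too, with 16 higher and 19 lower at 3 h and 8 and 36 at 24 h at an unadjusted p under 0.05, edgeR. For these counts, too, the share of all tested elements under the block is not given here. How far ALX1 protein fell was not analysed here.

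With ALX4 absent as well, ALX1 degradation was followed by a called fall at a few elements. In ALX1FV ALX4- the median log2 change was −0.10 at 3 h and −0.15 at 24 h, against −0.06 and −0.08 at other TWIST1 elements. None of 869 tested elements was called at 3 h, where 0 percent of all were (2 higher and 89 lower at an unadjusted p under 0.05, edgeR; DESeq2 called 0). At 24 h 12 were lower and none higher, where 0.0279 percent of all tested elements were called. At an unadjusted p under 0.05, edgeR, 7 were higher and 180 lower at 24 h. Shares at that p were 10.47% of ALX1-bound elements at 3 h and 21.52% at 24 h. Among all tested elements they were 4.57% and 6.34%, with no test between these shares. With each clone as a replicate block, 1 element was called at 3 h and 35 at 24 h. At 3 h it was 2 without 0 h replicate 1, 1 without 0 h replicate 2 or 3 h replicate 1, and 0 without 3 h replicate 2. Without either 24 h replicate, 0 were called at 24 h, without 0 h replicate 1 it was 20, and with no filter on low counts 3.

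The 12 elements included one 106 kb from CD82 and 148 kb from the ALX4 start site (chr11:44457840-44458340). It had 55.2 and 58.6 CPM per kb at 0 h in ALX1FV ALX4-, 26.5 and 47.9 at 3 h and 16.6 and 19.4 at 24 h. Every 24 h value lay below every earlier value, and the log2 change was −1.67 (SE 0.23, adjusted p = 0.000913, edgeR). In ALX1FV the same element had 146 and 152, then 141 and 124, then 120 and 118 (−0.33, not called), and in WT it stayed between 161 and 199. An element 465 kb from KCNT2, a potassium channel gene (chr1:196141761-196142977), had 10.3 and 12.8 at 0 h, 6.69 and 5.91 at 3 h and 2.76 and 4.46 at 24 h in ALX1FV ALX4- (−1.68, SE 0.29, adjusted p = 0.0164, edgeR). In TWIST1FV the KCNT2 element rose instead, from 35.5 and 27 to 79.9 and 91.5 (1.46, SE 0.18, adjusted p = 2.30e-05, edgeR). Of the 12, 10 also fell at 24 h in TWIST1FV, where 57.9% of all tested ALX1-bound elements fell.

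The other called elements lay near YAP1, the gene of a transcriptional co-activator (−1.36), LAMA3, a laminin gene (−1.34), KCNJ2 (chr17:70672117-70673017, −1.0), SPTSSA (−1.71), STRA8 (−1.35), AOPEP (−1.33), CCDC13 (−1.29), CEP68 (−1.10), CNGA3 (−0.76) and ANO2 (−0.71). The AOPEP, CCDC13 and ANO2 elements were named to complete the 12, after their values were seen. This KCNJ2 element had 54.4 and 68.6 CPM per kb at 0 h, 41.4 and 42.0 at 3 h and 29.2 and 32.7 at 24 h, with no overlap between times. The stronger KCNJ2 element printed above went from 63.8 and 78.3 to 39.4 and 47.4 and was not called.

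Tested against WT, 4 elements responded more at 24 h in ALX1FV ALX4-, those near CD82 (−1.65, SE 0.29, adjusted p = 0.0180, edgeR), KCNT2 (−1.59), YAP1 (−1.54) and AOPEP (−1.37), where 0.00401 percent of all tested elements were called. With the replicate block it was 20, with DESeq2 8, without ALX1FV ALX4- 0 h replicate 1 7, and without ALX1FV ALX4- 0 h replicate 2, ALX1FV ALX4- 24 h replicate 1 or either WT 0 h replicate 0. Without WT 24 h replicate 1 it was 2 and without WT 24 h replicate 2 it was 1. At 3 h no element differed from WT (0 percent of all), and the replicate block gave 2. At an unadjusted p under 0.05, edgeR, 1 was higher and 25 lower at 3 h. That was 2.97% of ALX1-bound elements, against 3.19% of all tested elements. At 24 h the shares at that p were 8.70% and 3.87%. The response of ALX1FV ALX4- minus that of ALX1FV gave 0 calls at 3 h and 0 at 24 h (0 percent of all tested elements), with 2 higher and 25 lower at 3 h and 1 and 52 at 24 h at an unadjusted p under 0.05, edgeR. With the replicate block these became 1 and 10, and without ALX1FV ALX4- 24 h replicate 2 there was 1 at 24 h. DESeq2 called 0.

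**Figure D5:**
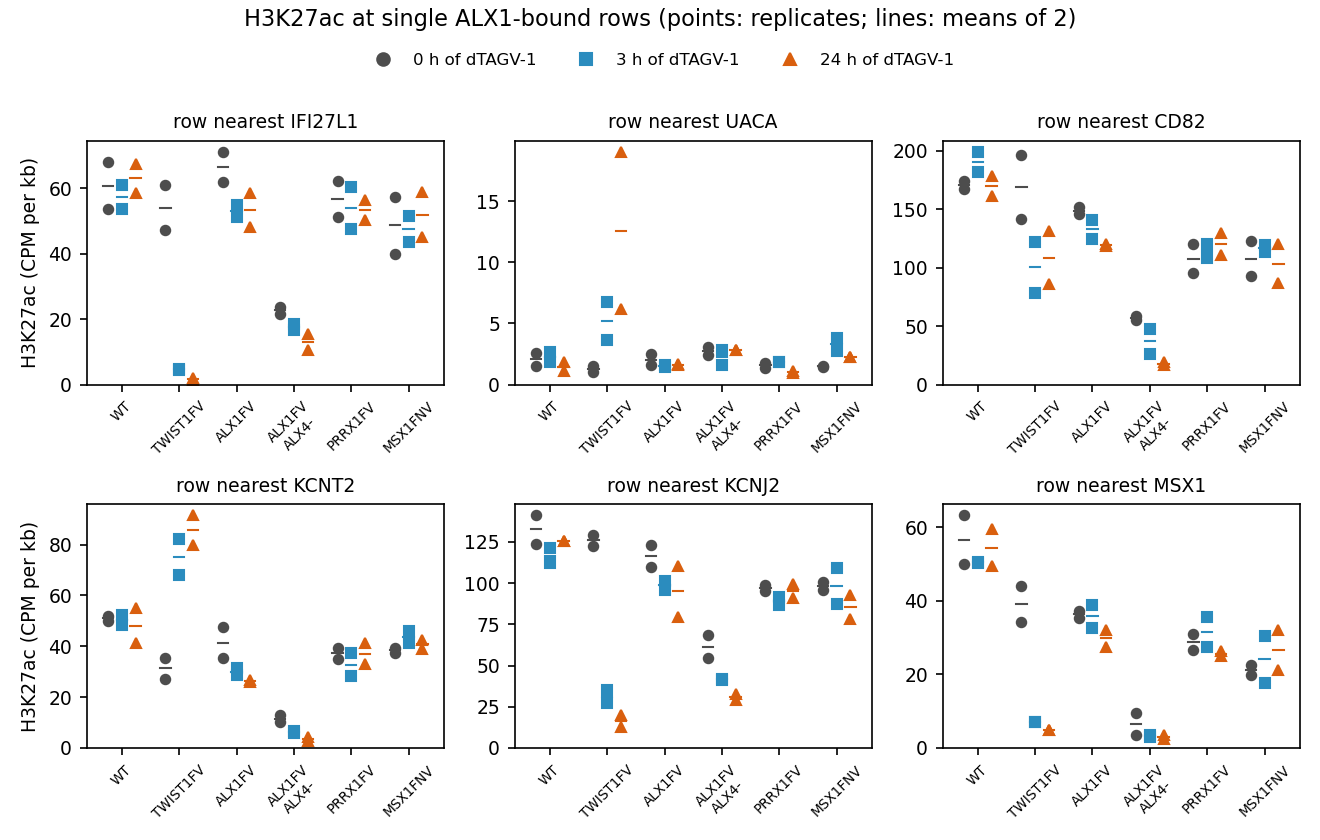
H3K27ac (CPM per kb) at 6 single ALX1-bound rows, by line and time of dTAGV-1, with points for replicates and lines for means of 2. The rows nearest IFI27L1 and UACA move in TWIST1FV, those nearest CD82, KCNT2 and KCNJ2 fall in ALX1FV ALX4-, and that nearest MSX1 is low in ALX1FV ALX4- from 0 h and falls in TWIST1FV.

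PRRX1 degradation gave no call among 870 tested elements at 3 h (0 percent of all, 10 higher and 7 lower at an unadjusted p under 0.05, edgeR) or 24 h (0.000827 percent of all, 11 and 28), and DESeq2 called 0. Shares at that p were 1.95% and 4.48%, against 3.91% and 4.23% of all tested elements. After MSX1 degradation 4.84% at 3 h and 7.96% at 24 h had an unadjusted p under 0.05, edgeR, against 2.85% and 3.57% of all tested elements. It gave 1 call of 867, higher, at 3 h (0.00179 percent of all, 38 higher and 4 lower at that p) and 1, also higher, at 24 h (0.00448 percent of all, 40 and 29). At 3 h it was 0 without 0 h replicate 2.

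Before any degradation, some of the elements had less H3K27ac in cells without ALX4. At 0 h in ALX1FV ALX4- against ALX1FV, 150 of 874 were lower and 4 higher, by edgeR's quasi-likelihood test. Of all tested elements 2.33 percent were lower, and of other TWIST1 elements 8.77%. The median was −0.26, and −0.29 at other TWIST1 elements. Counts of calls were 68 and 87 without ALX1FV ALX4- replicates 1 and 2 and 120 and 93 without ALX1FV replicates 1 and 2. The largest fall was at the MSX1 element 124 kb away, with 35.3 and 37.3 CPM per kb in ALX1FV and 3.38 and 9.61 in ALX1FV ALX4- (−2.52, SE 0.26, adjusted p = 3.55e-10, edgeR). The groups did not overlap, and this element also fell in TWIST1FV. Elements near HABP2 (−2.29), HMX1 (−2.11), NKX6-1 (−1.98) and SLC6A2 (−1.95) followed. Of the 4 higher, 3 lay near NR2F2 (1.34), KDM2B (1.21) and TARS2 (0.82), and the NR2F2 call was lost without ALX1FV replicate 2 or either ALX1FV ALX4- replicate. The HMX1 call was lost without the same libraries, and the TARS2 call without either ALX1FV replicate or ALX1FV ALX4- replicate 1 (adjusted p up to 0.0816 and 0.463, edgeR). The 3 elements nearest ALX4, the gene lost in this line, were at 53.2 to 180 CPM per kb in WT over all times and at 28.8 to 82.2 in ALX1FV ALX4- at 0 h.

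In ALX1FV against WT at 0 h, 8 elements were lower and 1 higher (0.412 percent of all called in either direction), and 139 were lower and 31 higher at an unadjusted p under 0.05, edgeR. The median was −0.15, and −0.10 at other TWIST1 elements. Under a replicate block 3 were higher and 13 lower, but this block paired equal replicate numbers across lines, which the labels do not pair. The number was 3 and 1 without WT replicates 1 and 2 and 15 and 4 without ALX1FV replicates 1 and 2. The lowest against WT was intronic in RORA, a nuclear receptor gene (−1.65; call lost without WT replicate 2), and the higher one lay near KLF12 (1.39). TWIST1FV differed from WT at 2 elements, both lower, near RASL12 (−0.94) and SKIDA1 (−0.71), where 0.0744 percent of all were called. It was 0 without WT replicate 2 and 1 without any other. Of other TWIST1 elements, 6.20% were lower than WT in PRRX1FV (median −0.21) and 4.99% in MSX1FNV (median −0.18). At ALX1-bound elements, PRRX1FV was lower than WT at 155 and higher at 7 (1.8 percent of all lower, median −0.35). MSX1FNV was lower at 115 and higher at 13 (1.51 percent of all lower, median −0.29). Scaling by library size alone gave 74 lower and 11 higher in PRRX1FV and 65 lower and 21 higher in MSX1FNV. The PRRX1FV count was 64 and 63 without WT replicates 1 and 2 and 58 and 37 without its own replicates 1 and 2. The MSX1FNV count was 52 and 53 without WT replicates 1 and 2 and 92 and 14 without its own. An element at the promoter of CYP1B1, a cytochrome gene, was lower in PRRX1FV than in WT (−2.29), a call lost without PRRX1FV replicate 1. NRP1, a semaphorin receptor gene, had an element lower in both (−2.38 and −2.45), with WT libraries shared by the comparisons. The NR2F2 element among the strongest in V5 was higher than WT in both (1.33 and 1.59), from 3.24 to 9.52 CPM per kb in WT over all times, and the call was lost without any 1 of the 4 libraries for PRRX1FV and without either WT replicate or replicate 2 for MSX1FNV. An ETS1 element (chr11:128370898-128371398) was at 7.50 and 7.95 in WT and 41.1 and 29.0 in MSX1FNV (2.17, adjusted p = 0.00264, edgeR), a call lost without WT replicate 1 (adjusted p = 0.0692, edgeR).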

How the data were processed

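H3K27ac was counted by the authors on one set of ATAC-seq elements, and the deposited counts are whole numbers per element in 6 tables of 6 libraries, with no further normalization. Of counts of 20 or more, 76.7 to 81.5% were even. Whether both mates of a read pair were counted is not given in the sources used here. The deposited peak lists give, per peak, a fold enrichment, a score, and −log10 p and −log10 q values, all made by the authors per library. The submitters' processing notes name Bowtie2 2.4.1, SAMtools 1.10, MACS2 2.2.7.1, deepTools 3.5.0, hg38 and mm39, without roles.

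An element and a peak overlapped where they shared at least 1 base. Elements were assigned to the nearest protein-coding start site of GENCODE 44, and sequence was read from hg38. Per comparison, elements with low counts were removed (filterByExpr), counts were scaled by TMM and tested over all remaining elements with edgeR 4.0.16 (quasi-likelihood, Benjamini-Hochberg false discovery rate 0.05) in R 4.3.3. Changes over time were fitted within a line, and comparisons between lines and responses in one fit of all libraries. Levels are CPM per kb of element. Shares of elements with a peak were compared over lists by exact permutation tests (scipy 1.17.1). The scripts were tested on simulated counts. DESeq2 1.42.0, library-size scaling, no filter, a replicate block, leaving out each library and other rules for the elements were the alternatives tried.

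Replicate numbers pair samples in ALX1FV, ALX1FV ALX4- and PRRX1FV, where each number is a clone in the labels. In ALX1FV, deviations of same-numbered samples from their group means correlated at 0.140 to 0.149 over all elements and at 0.713 to 0.741 over ALX1-bound elements. The other lines had weaker correlations over ALX1-bound elements, 0.141 to 0.194 in ALX1FV ALX4- and −0.0045 to 0.0454 in PRRX1FV. Unedited WT had 0.302 to 0.409.

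The elements and gene lists were chosen with earlier results of these data known. The text names the 10 strongest V5 elements in all 4 lists, up to 5 called elements per direction and comparison, the 8 smallest p-values of each ALX1 line at 24 h, elements of listed genes with at least 2 elements, and elements at the edge of the rule. Single elements of listed genes were named after their values were seen. Wilson intervals cover counting error over elements only. Some elements that the naming rule covers are not reported here.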

Additional observations from a re-analysis of the deposited data

Results flagged for a closer look

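Against WT cells given the same compound, TWIST1FV responded differently at 316 ALX1-bound elements at 3 h and at 460 at 24 h, by edgeR's interaction test. Of these, 313 and 450 fell more and 3 and 10 rose more than in WT. ALX1FV ALX4- responded differently from WT at 4 elements at 24 h, all with a larger fall, nearest CD82, KCNT2, YAP1 and AOPEP. WT and TWIST1FV libraries carried a mouse chromatin spike-in and ALX1FV ALX4- libraries did not, and its part in the last comparison was not tested.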

How the results depend on the processing

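Of the results for single elements under alternatives, which include the 8 elements of ALX1FV that were not called, 709 kept their side of the threshold and 162 lost the call, 6 of 97 with DESeq2, 5 of 98 with library-size scaling, 8 of 98 with no filter and 0 of 98 with the replicate block, the others without 1 library. No direction reversed. Library-size scaling moved the median of all tested elements from 0.03 to 0.16 on the log2 scale in TWIST1FV at 24 h, from 0.03 to 0.17 in PRRX1FV against WT and from 0.03 to 0.14 in MSX1FNV against WT. The causes were not tested.

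The replicate block changed the calls to 1 and 35 for ALX1FV ALX4- at 3 and 24 h (0 and 12), 2 and 20 for its response minus that of WT (0 and 4), 1 and 10 minus that of ALX1FV (0 and 0), and 16 for ALX1FV against WT (9). For comparisons at 0 h the block paired equal replicate numbers across lines, which the labels do not pair. Where numbers are shared without a clone of their own, it gave 546 and 636 for TWIST1FV at 3 and 24 h (393 and 521) and 5 for MSX1FNV at 24 h (1), and same-numbered deviations correlated there at less than 0.1 over all elements and at 0.268 to 0.434 (TWIST1FV) and 0.292 to 0.327 (MSX1FNV) over ALX1-bound elements. It changed no other count by over 1.5 times. DESeq2 gave 20 for ALX1FV against WT, 4 for TWIST1FV against WT (2) and 8 for the response of ALX1FV ALX4- minus WT at 24 h. Library-size scaling gave 85 for PRRX1FV against WT (162). No filter gave 3 for ALX1FV ALX4- at 24 h and 0 for MSX1FNV at 3 h (1).

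The number of ALX1-bound rows (the elements) was 2434 for at least 1 list, 386 for at least 3, 134 for all 4 and 583 with V5 −log10 q of at least 5. Over these first 3 sets, calls were 992, 166 and 50 in TWIST1FV at 3 h and 1423, 216 and 66 at 24 h, and 59 and 77 among elements with the ATTA arrangement, a subset chosen after seeing the data. For at least 1 and all 4 lists they were 19 and 3 in ALX1FV ALX4- at 24 h, and 2 and 0 in MSX1FNV at each time. The AP2a share was 46.0%, 62.7% and 68.7% for at least 1, at least 3 and all 4 lists, 62.1% with the V5 q minimum, 52.2% with an AP2a q minimum and 52.5% with the AP2a summit inside. The TWIST1 share was 98.9%, 100% and 100%, and 96.9% with the summit inside. With the summit inside, ALX1FV ALX4- exceeded WT by 0.285 percentage points. The share with the E-box 4 bases before TAATTA or TAATTG (1.60%) was 0.746% for all 4 lists and 6.16% with any TAAT, and, chosen after seeing the data, 14.7% with ATTA 6 bases on and 15.0% at V5 summits.

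Leaving out 1 library gave 554 to 798 elements, AP2a shares of 57.5 to 61.0% and TWIST1 shares of 99.7 to 100%. The change in TWIST1 share ran from −68.6 to −66.8 in TWIST1FV, from −0.114 to 0.114 for ALX1FV ALX4- against WT and from 31.1 to 36.7 for HEK293 with ALX4, and the composite share from 1.44 to 1.63%. Calls ran from 251 to 399 and 415 to 519 in TWIST1FV at 3 and 24 h, 240 to 314 and 375 to 473 for its response minus WT, 0 to 2 and 0 to 20 in ALX1FV ALX4-, 0 to 7 for its 24 h response minus WT, 0 to 1 minus ALX1FV, and 0 to 1 in MSX1FNV at 3 h. At 0 h they ran from 68 to 120 for ALX1FV ALX4- against ALX1FV, 1 to 15 for ALX1FV, 37 to 64 for PRRX1FV, 14 to 92 for MSX1FNV and 0 to 1 for TWIST1FV against WT. Where 1 library was left in a group, it was assumed to vary like the others. With 2 libraries a group, small changes such as the median of −0.15 in ALX1FV ALX4- at 24 h could not be called per element. Larger changes could be missed too. In simulated counts of ALX1FV ALX4-, a log2 change of −1 at 24 h was called at 20% of 50 changed elements, and −2 at 82%. For its response minus WT, in a fit of fewer lines, the shares were 2% and 36%. Changed elements were drawn from those above the median level, and recovery at the levels of ALX1-bound elements was not tested.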

Other observations

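One element nearest TTC34 (chr1:2855593-2856560) differed between clones of a line. ALX1FV replicate 1 had 453, 496 and 522 counts at 0, 3 and 24 h and replicate 2 had 0, 2 and 0. ALX1FV ALX4- had 120 to 257 counts, WT 88 to 155, and TWIST1FV, PRRX1FV and MSX1FNV at most 8. Each replicate number of ALX1FV was a clone of its own.

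Strong V5 did not go with high H3K27ac at every element. Of the 10 strongest in V5, those nearest NR2F2 and TLE3 had 3.24 to 9.52 and 0.56 to 4.5 CPM per kb in WT over all times, and 25.5 to 29.8 and 8.66 to 14.5 in ALX1FV ALX4-.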
